A study of Sus scrofa with 4 samples.

Results

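Exosomes from umbilical artery blood of newborn Yorkshire piglets with intrauterine growth restriction (IUGR) were compared with those of normal littermates by small RNA sequencing. There was 1 library for IUGR artery and 1 for normal artery, each made from plasma exosomes pooled over 3 piglets, among 4 libraries in the study. The other two came from the umbilical vein of IUGR and of normal piglets, and whether they hold the same piglets is not given. Which library was IUGR was read from the column letters of the deposited tables, since the sample labels give only the vessel and a number. The artery table listed 482 rows, each a microRNA (miRNA) name with 1 sequence. Of these, 68 rows of predicted candidates and of miR-3168, which likely derive from oligonucleotides of the library kit, were left out. A further 288 rows had fewer than 10 reads over both libraries. The remaining 126 rows, with 120 different sequences, are described here out of 664 rows listed for artery and vein together. With 1 pool per condition there is no replicate, so no difference below was tested, and animal and library variation are not separated from the condition.

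miRNAs are short RNAs loaded into Argonaute proteins that repress messenger RNAs, which they recognise chiefly through the seed near their 5′ end. Exosomes are small vesicles that carry miRNAs from the cells that release them into blood, so plasma exosomes mix miRNAs of blood cells, vessel wall and solid organs. The umbilical arteries carry fetal blood towards the placenta, while the vein returns oxygenated blood from it.

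Some of the sequences on which the results turn are given first, chosen from the most abundant and the most unequal ones, as listed in the deposited table, 5′ to 3′, with T for U and with the seed (bases 2 to 8) in capitals. The first 6 were higher in IUGR artery: the liver miRNA miR-122, its opposite arm miR-122-3p, the broadly expressed miR-30e-5p, let-7a, the collagen-repressing miR-29c, and the angiogenic miR-130a.
miR-122: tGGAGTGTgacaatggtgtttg
miR-122-3p: aACGCCATtatcacactaaat
miR-30e-5p: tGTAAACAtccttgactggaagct
let-7a: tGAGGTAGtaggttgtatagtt
miR-29c: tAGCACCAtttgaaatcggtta
miR-130a: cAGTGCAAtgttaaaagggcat

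The next 8 were lower in IUGR artery. miR-451 is an erythroid miRNA processed by Argonaute2 instead of Dicer. miR-92a and miR-25 share the seed ATTGCAC, and miR-15a and miR-15b share the seed AGCAGCA. miR-339, miR-423-3p and miR-9841-3p are rich in G and C. The names are those of pig, except for miR-122-3p, listed under a human name, and miR-25, listed under a cattle name.
miR-451: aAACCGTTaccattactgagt
miR-92a: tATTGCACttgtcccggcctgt
miR-25: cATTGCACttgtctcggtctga
miR-15a: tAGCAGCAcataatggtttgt
miR-15b: tAGCAGCAcatcatggtttac
miR-339: tCCCTGTCctccaggagctca
miR-423-3p: aGCTCGGTctgaggcccctcagt
miR-9841-3p: tCTAGCATcgagcacccgcct

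The libraries were shallow. The IUGR artery library held 20144 reads and the normal artery library 13749. The rows left out took 38.8% of the IUGR artery reads (95% exact binomial interval 38.1 to 39.5) and 46.0% of the normal artery reads (45.2 to 46.9). This left 12325 reads in IUGR artery and 7419 in normal artery, to which all levels below are scaled. One read is thus worth 0.811 per 10000 in IUGR artery and 1.35 per 10000 in normal artery, and a count of 3, taken as the limit that a count of 0 allows, is worth 2.43 and 4.04 per 10000, in IUGR and normal artery. Intervals of ratios are 95% exact conditional (Clopper-Pearson) intervals on rounded reads. All intervals and limits cover counting error only, since PCR copies cannot be told from separate molecules in libraries that carry no molecular identifiers.

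The libraries were led by different miRNAs. In IUGR artery the most abundant row was miR-122, with 21.2% of reads, and in normal artery it was miR-451, with 32.4%. The 10 most abundant rows took 59.6% of reads in IUGR artery and 60.2% in normal artery. Both leading miRNAs were among the 10 most abundant of each library. Of the 126 rows, 52 (41.3%) were at least 2-fold higher in IUGR artery and 52 (41.3%) were at least 2-fold lower, with 22 in between. With the additional condition that the counting interval of the ratio lay clear of no change, 47 rows (37.3%) were higher and 48 rows (38.1%) lower. The difference was at least 4-fold for 39 higher and 35 lower rows. The median log2 ratio over all 126 rows was 0.39, with quartiles at -2.21 and 2.40. The 52 higher rows held 71.3% of the IUGR artery reads and 9.22% of the normal artery reads, and the 52 lower rows held 15.6% of the IUGR artery reads and 76.0% of the normal artery reads. Since most rows differed by 2-fold or more, a list in which most members differ is not by itself set apart from the rest. The rows nearest the 2-fold line were miR-103, at a log2 ratio of -1.002, and miR-27b-3p, at -1.02, just inside it, and miR-152, at 0.98, and miR-199a-3p, at 0.97, just outside it. At the limit of 10 reads, miR-375 and miR-99b had 10 reads and were included, and miR-218b, with 9.5 reads, was not.

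**Figure D1:**
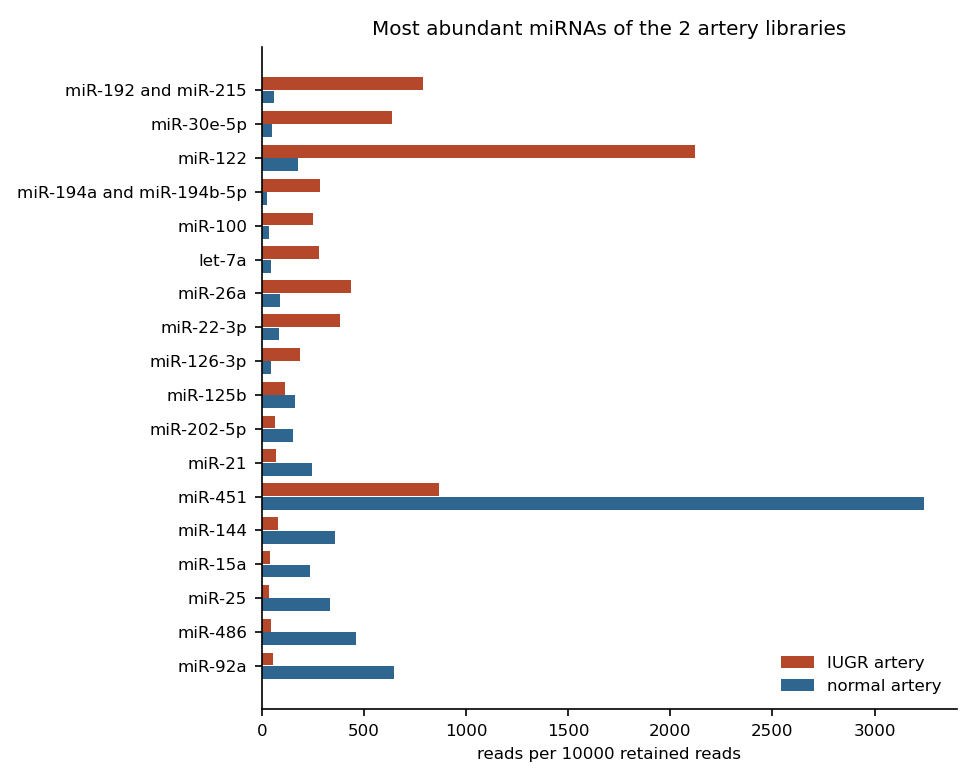
Level of each miRNA that was among the 10 most abundant in either artery library, in reads per 10000 retained reads (bars start at 0), ordered by the ratio of IUGR artery to normal artery. The bar of miR-122 reaches 2119 in IUGR artery, against 179 in normal artery, and that of miR-451 reaches 867 in IUGR artery, against 3242 in normal artery. There is 1 pooled library per bar, so no error bar is drawn.

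The miRNAs known from liver were far more abundant in IUGR artery. They took 32.7% of reads in IUGR artery (31.9 to 33.6) and 2.70% in normal artery (2.34 to 3.09). All 7 kept rows of the liver list, which hold 5 different sequences, were at least 2-fold higher in IUGR artery with intervals clear of no change, as were 37.3% of all rows. Their median log2 ratio was 3.56 against 0.39 over all rows. miR-122, the most abundant miRNA of hepatocytes and a regulator of lipid metabolism there, had 2612 reads in IUGR artery and 133 in normal artery. This is 11.8-fold higher in IUGR artery (log2 ratio 3.56, interval 3.31 to 3.83). Its opposite arm miR-122-3p had 73 reads in IUGR artery and 1 in normal artery (log2 ratio 5.46, 2.93 to 10.8). The minor arm took 2.72% of the reads of both arms in IUGR artery (2.14 to 3.41) and 0.746% in normal artery (0.0189 to 4.09), and these intervals overlap. Fewer vesicles from one cell type and less of its miRNA per vesicle cannot be told apart in such libraries.

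miR-194, which is encoded beside miR-192 and beside miR-215 in mammalian genomes and is found in liver and gut, had 349 reads in IUGR artery and 19 in normal artery over its rows miR-194a and miR-194b-5p, which share a sequence. It was 11.1-fold higher in IUGR artery (log2 ratio 3.47, 2.80 to 4.22). The sequence listed under both miR-192 and miR-215 had 972 reads in IUGR artery and 44 in normal artery, 13.3-fold higher in IUGR artery (log2 ratio 3.73, 3.30 to 4.20). Both names carry a recorded base difference from the named pig miRNA, C1A for miR-192 and A20C for miR-215, with positions counted from 1 at the 5′ end of the named miRNA. There was no row of miR-192 without a substitution.

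Reads that match pig names only with a substitution, or that carry names of other species, were themselves unequal between the libraries. Some sequences were listed only under names that record a substitution, unlike that of miR-194b-5p, which is also listed as miR-194a. Rows with such sequences held 12.3% of reads in IUGR artery (11.7 to 12.9) and 3.98% in normal artery (3.54 to 4.45). Of the 11 such rows kept, 7 passed 2-fold upward and 3 passed it downward in IUGR artery, beside 41.3% of all rows in each direction. Rows named for opossum or platypus miRNAs held 179 reads in IUGR artery, 1.45% (1.25 to 1.68), and 6.5 reads in normal artery, 0.0876% (0.0379 to 0.194). All 7 of these that were kept were at least 2-fold higher in IUGR artery, beside 41.3% of all rows. They were miR-200a-3p, miR-16c-5p, miR-215, miR-210-3p, miR-460-3p, miR-210-5p and miR-15c-5p, and no pig-named row of miR-200a, miR-16c, miR-460 or miR-15c was listed. In the vein libraries such rows held 0.0558% of reads in IUGR and 0.0212% in normal. Whether these reads come from pig, and their part in the contrasts between the artery libraries, was not tested. Without the rows whose sequence is named only with a substitution, the liver list held 28.1% of reads in IUGR artery and 2.16% in normal artery. With only the pig-named rows among those left, 33 of 88 rows were higher and 33 lower.

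The red cell miRNAs ran the other way. The erythroid list took 12.4% of reads in IUGR artery (11.8 to 13.02) and 56.1% in normal artery (55.0 to 57.3), which is 4.52-fold lower in IUGR artery. Of its 11 kept rows, 9 were at least 2-fold lower with intervals clear of no change, as were 38.1% of all rows. Of the rest 1 was higher and 1 lay in between, and the median log2 ratio of the list was -2.85. The row in between, miR-16, passed 2-fold downward under scaling by the median of ratios (log2 ratio -1.22). miR-451 had 1068 reads in IUGR artery and 2405 in normal artery, 3.74-fold lower in IUGR artery (log2 ratio -1.90, -2.01 to -1.80). miR-144, cut from the same primary transcript in erythroid cells, had 96 reads in IUGR artery and 268 in normal artery, 4.64-fold lower in IUGR artery. The 2 miRNAs of this transcript thus stood at similar ratios, with overlapping intervals (-2.57 to -1.87 for miR-144). miR-486, an abundant miRNA of red cells, had 56 reads in IUGR artery and 342 in normal artery, 10.1-fold lower in IUGR artery (log2 ratio -3.34, -3.78 to -2.93).

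miR-92a and miR-25, which belong to a single seed family and are abundant in blood cells, were lower by a similar factor as miR-486. miR-92a had 70.5 reads in IUGR artery and 482 in normal artery, 11.4-fold lower in IUGR artery. miR-25 had 43 reads in IUGR artery and 247 in normal artery, 9.54-fold lower in IUGR artery. miR-363, of the same seed family, was the exception, with 38 reads in IUGR artery and 5 in normal artery, 4.57-fold higher in IUGR artery (log2 ratio 2.19, 0.85 to 3.90). miR-15a, with 49 reads in IUGR artery and 177 in normal artery, had log2 ratio -2.59 (-3.07 to -2.12). miR-15b, with 10 reads in IUGR artery and 87 in normal artery, was 14.5-fold lower. miR-16, encoded beside each of them and known to limit cell division, lay in between, with 97 reads in IUGR artery and 102.5 in normal artery, a level of 78.7 per 10000 in IUGR artery and 138 in normal artery (log2 ratio -0.81, -1.23 to -0.40). Erythroid miRNAs therefore did not move by a common factor, and the intervals of miR-451 and miR-16 do not overlap those of miR-92a, miR-25 and miR-15b, which lie lower.

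Shares of a library sum to a whole, so a large rise of one miRNA lowers the others. Without the rows of miR-122 and miR-451 and with each library rescaled, the liver list held 15.7% of reads in IUGR artery and 1.35% in normal artery, and the erythroid list 5.40% in IUGR artery and 36.1% in normal artery. The contrasts of both lists kept their direction there. The remaining reads are still shares of a whole, so the part of this effect in the contrasts was not tested.

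**Figure D2:**
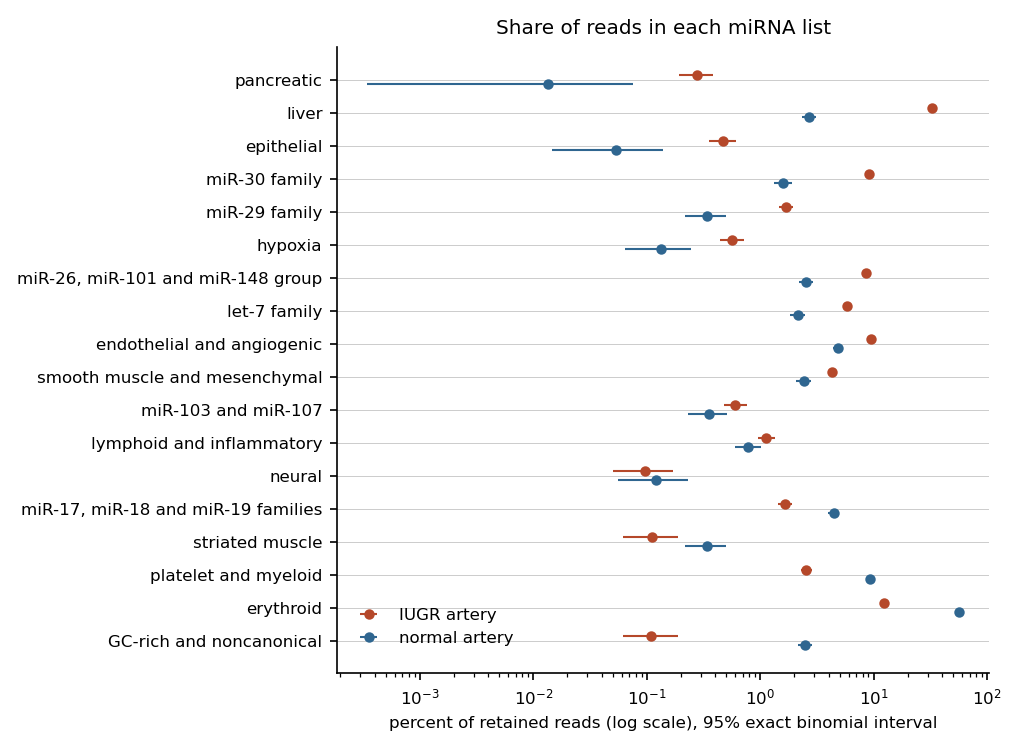
Share of retained reads in each miRNA list with at least 1 kept row, in percent on a log scale, for IUGR artery and normal artery, with 95% exact binomial intervals (where no line shows, the interval is narrower than the point). Lists run from the highest ratio of IUGR artery to normal artery at the top to the lowest at the bottom. The liver list lies at 32.7% in IUGR artery and 2.70% in normal artery, and the erythroid list at 12.4% in IUGR artery and 56.1% in normal artery.

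Other blood cell miRNAs were mostly lower. The platelet and myeloid list took 2.56% of reads in IUGR artery (2.28 to 2.85) and 9.19% in normal artery (8.54 to 9.87). Of its 12 kept rows 10 were at least 2-fold lower, beside 41.3% of all rows, 1 was higher and 1 lay in between, at a median log2 ratio of -2.05. miR-223-3p, the myeloid miRNA of neutrophils and platelets, had 16 reads in IUGR artery and 82 in normal artery, 8.51-fold lower in IUGR artery. miR-191, abundant in blood cells, had 13 reads in IUGR artery and 83 in normal artery, 10.6-fold lower in IUGR artery. miR-425-5p, from the same cluster as miR-191, had 2 reads in IUGR artery and 24 in normal artery (log2 ratio -4.32, -7.44 to -2.31). miR-21, a widely expressed miRNA raised in activated and proliferating cells, had 85 reads in IUGR artery and 183 in normal artery, 3.58-fold lower in IUGR artery. The exception was miR-142-3p, a miRNA of all blood cell lineages, with 40 reads in IUGR artery and 7 in normal artery, 3.44-fold higher in IUGR artery. Its more abundant opposite arm miR-142-5p had 88 reads in IUGR artery and 62 in normal artery. The interval of that arm includes no change (log2 ratio -0.23, -0.71 to 0.27). The 3p arm took 31.25% of the reads of both arms in IUGR artery (23.35 to 40.04) and 10.1% in normal artery (4.18 to 19.8).

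The lymphoid and inflammatory list was split. It took 1.13% of reads in IUGR artery and 0.788% in normal artery (log2 ratio 0.52, 0.07 to 0.98). Of its 4 kept rows 1 was higher, 2 were lower and 1 lay in between, beside 41.3% of all rows in each direction. miR-342, abundant in lymphocytes, had 0 reads in IUGR artery, which allows up to 2.43 per 10000, and 23 reads in normal artery, so that it was at least 12.7-fold lower in IUGR artery (against 3 counts). miR-150, a miRNA of mature lymphocytes, had 7 reads in IUGR artery and 12 in normal artery, 2.85-fold lower in IUGR artery (log2 ratio -1.51, -3.09 to -0.05). miR-146a-5p, a feedback inhibitor of NF-kB signalling, went the other way with 76 reads in IUGR artery and 7.5 in normal artery, 6.10-fold higher in IUGR artery (log2 ratio 2.61, 1.46 to 3.78). miR-181a, a modulator of T cell receptor signalling, had 34.5 reads in IUGR artery and 12.5 in normal artery, with an interval that includes no change (log2 ratio 0.73, -0.26 to 1.74).

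A list of miRNAs chosen as GC-rich was low in IUGR artery. This list, which includes miR-320 and miR-484, whose precursors bypass the Drosha step, took 0.110% of reads in IUGR artery (0.0621 to 0.191) and 2.49% in normal artery (2.15 to 2.87), 22.7-fold lower in IUGR artery. All 6 of its kept rows, which carry 4 names, were at least 2-fold lower, beside 41.3% of all rows, at a median log2 ratio of -4.56. miR-423-3p had 3 reads in IUGR artery and 44 in normal artery (log2 ratio -4.61, -6.94 to -2.97). miR-423-5p, its opposite arm, had 5 reads in IUGR artery and 48 in normal artery, 15.9-fold lower in IUGR artery. miR-320 had 1 read in IUGR artery and 16 in normal artery (log2 ratio -4.73, -10.1 to -2.05). Both arms of miR-423 were thus low together. miR-9841-3p, a pig miRNA without a role known here, had 0 reads in IUGR artery and 84 in normal artery, at least 46.5-fold lower in IUGR artery. Its level in normal artery was 113 per 10000, and its sequence has a GC content of 61.9%.

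The base composition of the kept rows differed in the same sense. The median GC content was 43.9% over the 52 higher rows, 50% over the 52 lower rows and 41.9% over the 22 rows in between. A GC content of at least 60% was found in 3 higher rows, 11 lower rows and 0 rows in between. The lower ones include 3 length variants of miR-339 and 2 of miR-484, and the higher ones include miR-1260 and miR-1260a, which share a sequence. The rows left out that had at least 10 reads did not show this pattern. Their 7 higher rows had a GC content of 68.4% to 95%, and their 4 lower rows 44.4% to 88.9%. The read lengths differed too: sequences of 22 bases held 56.8% of reads in IUGR artery and 35.05% in normal artery, those of 21 bases 25.3% in IUGR artery and 49.4% in normal artery, and those of 24 bases 8.14% in IUGR artery and 1.27% in normal artery. Whether GC content or length played a part in the ratios was not tested.

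Length variants of a single miRNA were compared where both were kept. miR-339, a GC-rich miRNA of platelets and other blood cells, was listed as sequences of 21, 20 and 19 bases. They had 4.5, 3 and 0.5 reads in IUGR artery, against 85.5, 48 and 11 in normal artery, in the order of decreasing length. All variants of miR-339 were thus lower in IUGR artery, and the 21-base form was 31.6-fold lower (log2 ratio -4.98, -6.50 to -3.56). The row named miR-100 with the substitution A16T extends the 21-base row of miR-99a by 2 bases, and these went in opposite directions. The longer row had 309 reads in IUGR artery and 27.5 in normal artery, 6.76-fold higher in IUGR artery. The shorter one, miR-99a, had 47 reads in IUGR artery and 85.5 in normal artery, 3.02-fold lower in IUGR artery. The longer sequence took 86.8% of their joint reads in IUGR artery (82.8 to 90.1) and 24.3% in normal artery (17.0 to 33.5). Jointly the rows had 356 reads in IUGR artery and 113 in normal artery (log2 ratio 0.92, 0.61 to 1.24), so their single ratios depend on which ends were sequenced. miR-107 and miR-103, miRNAs with a role in insulin signalling in mouse, are a similar pair, since the 21-base row of miR-107 is the start of the 23-base row of miR-103. The miR-103 row took 15.8% of the joint reads in IUGR artery (7.996 to 26.0) and 51.9% in normal artery (31.9 to 71.3). Their single ratios, 2.87-fold higher in IUGR artery for miR-107 and 2.00-fold lower for miR-103, therefore depend on which ends were sequenced, and jointly they had 71.7 reads in IUGR artery and 26.3 in normal artery (log2 ratio 0.71, 0.07 to 1.44).

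The families expressed in most tissues held larger shares of reads in IUGR artery, while their members were divided. The miR-30 family took 9.11% of reads in IUGR artery (8.61 to 9.63) and 1.59% in normal artery (1.32 to 1.90), with 3 of 6 kept rows higher and 1 lower, beside 41.3% of all rows in each direction. Most of the family's reads in IUGR artery were of miR-30e-5p. miR-30e-5p, in its 24-base form, had 786.5 reads in IUGR artery and 39 in normal artery, 12.1-fold higher in IUGR artery (log2 ratio 3.60, 3.14 to 4.11). miR-30c-5p had 157 reads in IUGR artery and 14.8 in normal artery, 6.36-fold higher in IUGR artery. miR-30b-5p and miR-30d, encoded side by side, had log2 ratios of 0.76 and 0.78 and did not reach 2-fold. The members of this seed family thus differed among themselves by more than their counting intervals. Within miR-30a the arms were exchanged: miR-30a-3p had 46 reads in IUGR artery and 4 in normal artery, and miR-30a-5p, in a 24-base form, had 3 reads in IUGR artery and 12 in normal artery. The 3p arm made up 93.9% of the reads of both arms in IUGR artery (83.1 to 98.7) and 25% in normal artery (7.27 to 52.4), so the intervals do not overlap.

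The let-7 family, repressors of growth and of fetal gene programmes, took 5.82% of reads in IUGR artery (5.41 to 6.25) and 2.13% in normal artery (1.81 to 2.48). Of its 8 kept rows 5 reached 2-fold higher and 0 lower, beside 41.3% of all rows in each direction, with a median log2 ratio of 1.26. Under scaling by the median of ratios, let-7f and let-7b-5p no longer reached 2-fold (log2 ratios 0.96 and 0.75). let-7a had 348 reads in IUGR artery and 32.2 in normal artery, 6.51-fold higher in IUGR artery (log2 ratio 2.70, 2.19 to 3.28). miR-98, a let-7 family member encoded beside let-7f, had 54 reads in IUGR artery and 4 in normal artery, 8.13-fold higher in IUGR artery. let-7g, with 53.9 reads in IUGR artery and 32.0 in normal artery, stood at nearly the same level in both libraries (43.7 per 10000 in IUGR artery and 43.1 in normal artery). The let-7 sequences differ in few bases, and 47 of the 126 rows hold fractions of reads shared with other rows, so single members are less certain than the family.

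The miR-29 family, which restrains collagen and other matrix genes, had all 3 kept rows at least 2-fold higher, beside 41.3% of all rows. miR-29a had 78.8 reads in IUGR artery and 17.5 in normal artery, 2.71-fold higher in IUGR artery. miR-29b had 53.3 reads in IUGR artery and 3 in normal artery (log2 ratio 3.42, 1.79 to 5.73). miR-29c had 76.8 reads in IUGR artery and 4.5 in normal artery, 10.3-fold higher in IUGR artery. Their summed share was 1.69% in IUGR artery and 0.337% in normal artery. In the group of miR-26, miR-101 and miR-148, miRNAs of most tissues, 3 of 5 kept rows were higher and 1 lower, beside 41.3% of all rows each way. miR-26a, a brake on cell cycle genes, had 541 reads in IUGR artery and 66 in normal artery, 4.93-fold higher in IUGR artery. miR-26b-5p, which shares its seed, had 6 reads in IUGR artery and 12 in normal artery, 3.32-fold lower in IUGR artery. miR-148b-3p, a repressor of a DNA methyltransferase, had 217.5 reads in IUGR artery and 18.5 in normal artery, 7.08-fold higher in IUGR artery. miR-148a-3p, with the same seed, had log2 ratio 0.16 (-0.26 to 0.57).

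The vessel wall miRNAs were divided. Of the 11 kept rows of the endothelial and angiogenic list, 5 were at least 2-fold higher, 3 lower and 3 in between, beside 41.3% of all rows in each direction. Their median log2 ratio was 0.48, close to the 0.39 of all rows. The summed list took 9.57% of reads in IUGR artery (9.05 to 10.1) and 4.87% in normal artery (4.39 to 5.38). The substituted row of miR-100 counts among the higher rows here, and miR-99a, which it extends, among the lower ones. miR-126-3p, the endothelial miRNA that sustains VEGF signalling, had 234 reads in IUGR artery and 33 in normal artery, 4.27-fold higher in IUGR artery (log2 ratio 2.09, 1.56 to 2.67). Its opposite arm miR-126-5p had 65 reads in IUGR artery and 28 in normal artery (log2 ratio 0.48, -0.18 to 1.18). The 3p arm took 78.3% of the reads of both arms in IUGR artery (73.1 to 82.8) and 54.1% in normal artery (40.8 to 66.9). miR-221-3p and miR-222, a cluster that targets the receptor KIT, were similar to each other. miR-221-3p had 148 reads in IUGR artery and 16 in normal artery, 5.57-fold higher in IUGR artery. miR-222 had 121 reads in IUGR artery and 12 in normal artery, 6.07-fold higher in IUGR artery. miR-130a, a repressor of antiangiogenic homeobox genes, had 85 reads in IUGR artery and 5 in normal artery (log2 ratio 3.36, 2.08 to 5.01). miR-125b, a regulator of blood stem cells, had 143 reads in IUGR artery and 120 in normal artery, 1.39-fold lower in IUGR artery, and its relative miR-125a had 2 reads in IUGR artery and 16 in normal artery (log2 ratio -3.73, -6.90 to -1.64).

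Among the 7 kept rows of the smooth muscle and mesenchymal list, 2 were higher, 1 lower and 4 in between, at a median log2 ratio of 0.97. Over all rows, 41.3% were higher and 41.3% lower. miR-145-5p, which keeps smooth muscle cells differentiated, had 44 reads in IUGR artery and 4 in normal artery, 6.62-fold higher in IUGR artery. miR-143-3p, from the same transcript, had 232 reads in IUGR artery and 90 in normal artery, 1.55-fold higher in IUGR artery (log2 ratio 0.63, 0.28 to 1.00). miR-145-5p was therefore more raised than miR-143-3p, with intervals that do not overlap (1.27 to 4.67 for miR-145-5p). miR-199a-5p was 3.89-fold higher in IUGR artery (77.5 reads in IUGR artery and 12 in normal artery), while miR-214, from the same transcript, was 2.10-fold lower (15 reads in IUGR artery and 19 in normal artery), though not with all rows kept (log2 ratio -0.89).

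miR-210, the miRNA most directly induced by low oxygen through HIF-1, had 34 reads in IUGR artery and 9 in normal artery under its pig name. This is 2.27-fold higher in IUGR artery, with an interval that barely clears no change (log2 ratio 1.19, 0.10 to 2.43), and under scaling by the median of ratios it lay under 2-fold (log2 ratio 0.78). Its other two kept rows carry opossum names: miR-210-3p had 21 reads in IUGR artery and 0 in normal artery, and miR-210-5p had 12 reads in IUGR artery and 1 in normal artery. The epithelial list had 2 kept rows, miR-200b-3p with 17 reads in IUGR artery and 1 in normal artery and the opossum-named miR-200a-3p with 35 reads in IUGR artery and 0 in normal artery. Both belong to the miR-200 group, which keeps epithelial cells from changing to mesenchymal ones. The pancreatic miRNAs miR-216, of acinar cells, and miR-375, of islets, had 18 and 9 reads in IUGR artery, against 0 and 1 in normal artery, and only the interval of miR-216 cleared no change. The X-linked cluster of miR-424 and the imprinted DLK1-DIO3 cluster had no row with 10 reads. The striated muscle list had 1 kept row, miR-133a-3p, 3.23-fold lower in IUGR artery, and the neural list had 1, the brain-enriched miR-128, with log2 ratio -0.15.

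The miR-17, miR-18 and miR-19 families, products of clusters that drive proliferation, took 1.65% of reads in IUGR artery and 4.43% in normal artery. Of their 11 kept rows, which hold 9 different sequences, 7 were lower, beside 41.3% of all rows, 1 was higher and 3 lay in between. The lower rows include 2 pairs that share a sequence, miR-17-5p with miR-106a and the 21-base rows of miR-106b. The 21-base sequence of miR-106b had 4 reads in IUGR artery and 55 in normal artery, 22.8-fold lower in IUGR artery. miR-93, from the same host gene, had 8 reads in IUGR artery and 46 in normal artery, 9.55-fold lower in IUGR artery. With miR-25, all kept members of that cluster lay between -4.51 and -3.25 on the log2 scale. The cluster from miR-17 to miR-92a was uneven: the shared sequence of miR-17-5p and miR-106a was 4.58-fold lower in IUGR artery, miR-20a 3.13-fold lower and miR-92a 11.4-fold lower, while miR-19a and miR-19b had log2 ratios of 0.72 and 0.58 with intervals that include no change. miR-20b, with 28 reads in IUGR artery and 4 in normal artery, and miR-363, both from the X-linked relative of that cluster, were 4.21-fold and 4.57-fold higher in IUGR artery.

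Over 25 genomic clusters with at least 2 kept sequences, 11 had every member above a log2 ratio of 0, 8 had every member below it and 6 were mixed, of which 3 held members past 2-fold in each direction. These clusters are not separate, since some sequences, such as those of miR-16, miR-24-3p and miR-29b, count in several of them. Over the 21 seeds shared by at least 2 kept sequences, which cover 64 sequences, 4 had every member at least 2-fold higher, 3 had every member at least 2-fold lower and 8 held members of both kinds. The summed levels of 4 seeds follow. Sequences with the seed GTAAACA of miR-30 summed to 874 per 10000 in IUGR artery and 151 in normal artery. Those with the seed GAGGTAG of let-7 summed to 511 in IUGR artery and 175 in normal artery. Those with the seed ATTGCAC of miR-25 and miR-92a summed to 123 in IUGR artery and 1007 in normal artery. Those with the seed AGCAGCA of miR-15 and miR-16 summed to 163 in IUGR artery and 495 in normal artery.

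**Figure D3:**
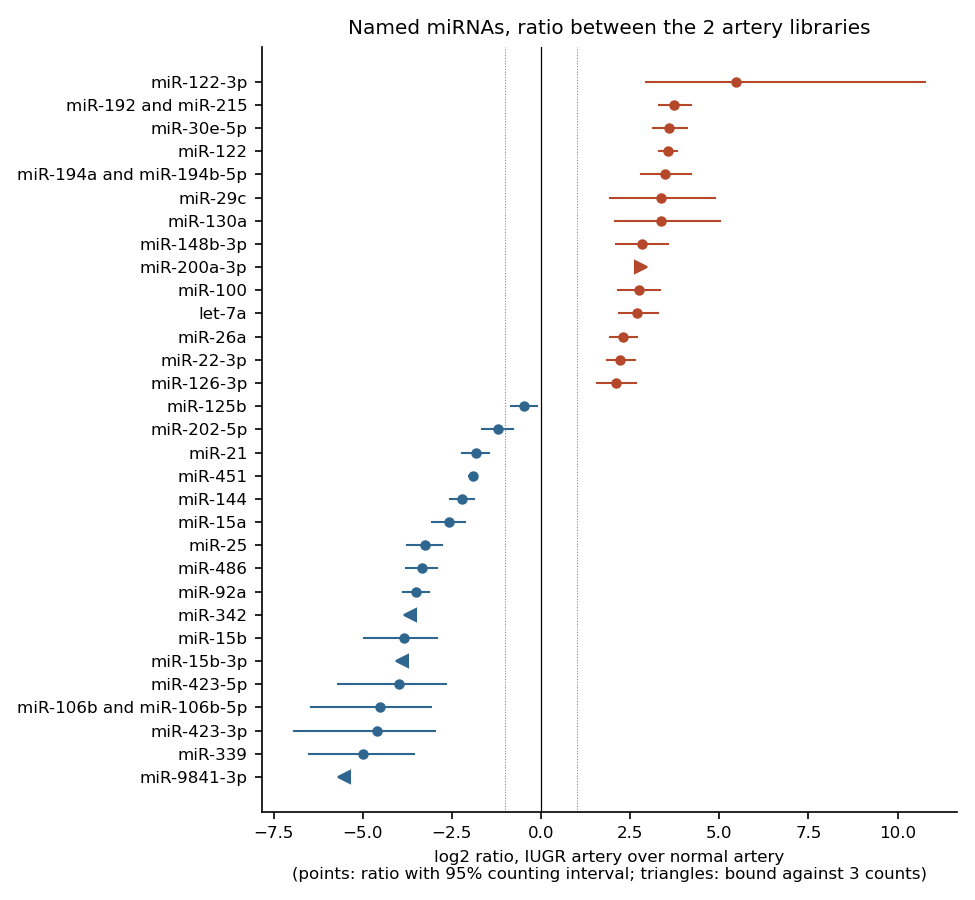
The log2 ratio of IUGR artery over normal artery for the most abundant miRNAs and for the most extreme ones by counting interval, with 95% counting intervals as lines. Triangles mark miRNAs with 0 reads in a library, drawn at their bound against 3 counts, and dotted lines mark 2-fold. miR-122-3p lies highest at 5.46 with the widest interval, and miR-9841-3p lies lowest, at or below -5.54.

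Outside the lists, 24 rows were kept, 12 higher and 10 lower in IUGR artery, with 8.10% of reads in IUGR artery and 9.01% in normal artery. miR-22-3p, a miRNA of most tissues with a role in heart growth in mouse, had 474 reads in IUGR artery and 61 in normal artery, 4.68-fold higher in IUGR artery (log2 ratio 2.23, 1.84 to 2.63). miR-33a, encoded within the cholesterol regulator gene SREBF2, had 30 reads in IUGR artery and 2 in normal artery (log2 ratio 3.17, 1.20 to 6.28). miR-202-5p, known from gonads and listed with the substitution T16C, was among the 10 most abundant in normal artery, with 81 reads in IUGR artery and 113 in normal artery, 2.32-fold lower in IUGR artery.

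The vein pair, scaled in the same way, was set beside the artery pair. The rows left out took 55.8% of the IUGR vein reads and 13.2% of the normal vein reads, a wider gap than in artery. The vein libraries kept 7169 reads for IUGR vein and 35300 for normal vein, and 98 of the 120 artery sequences were also kept there. Of the 153 rows kept in vein, 35 were at least 2-fold higher in IUGR and 32 lower, beside 52 and 52 of 126 rows in artery. Of the 98 sequences, 17 were at least 2-fold higher in IUGR in both vessels and 18 at least 2-fold lower in both. In artery alone 10 were higher and 29 lower, in vein alone 6 were higher and 0 lower, 16 lay in between in both, and 2 were lower in artery and higher in vein. The median size of the log2 ratio was 2.19 in artery and 0.81 in vein. The liver list was higher in IUGR in the vein too, with 2.66% of reads in IUGR vein (2.30 to 3.06) and 0.212% in normal vein (0.167 to 0.266), a 12.5-fold difference against 12.1-fold in artery. miR-122 had 136 reads in IUGR vein and 45 in normal vein (log2 ratio 3.90, 3.40 to 4.42). The erythroid list, in contrast, took 59.1% of reads in IUGR vein (57.9 to 60.2) and 62.4% in normal vein (61.9 to 62.9). The deficit of erythroid reads was thus far larger in the artery pair, where the counting interval of the list's log2 ratio was -2.26 to -2.09, against a log2 ratio of -0.08 in the vein pair. The GC-rich list was lower in both vessels, with 1.71% of reads in IUGR vein and 4.68% in normal vein.

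For 39 of the 98 sequences kept in both vessels, the counting intervals of the artery and vein ratios did not overlap. The artery ratio was lower for 33 of them and higher for 6. The 6 with a higher ratio in artery were the substituted row of miR-100, miR-30e-5p, miR-22-3p, miR-148b-3p, miR-145-5p and miR-221-3p. miR-99a, which that row of miR-100 extends, was among those with a lower ratio in artery. miR-221-3p had log2 ratio 2.48 in artery (1.73 to 3.32) and -0.34 in vein (-1.36 to 0.54). Among those with a lower ratio in artery, let-7c had log2 ratio 0.38 in artery (-0.40 to 1.28) and 2.86 in vein (2.09 to 3.63). Since each ratio rests on 1 pool per condition and vessel, the difference between vessels has no replicate check.

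**Figure D4:**
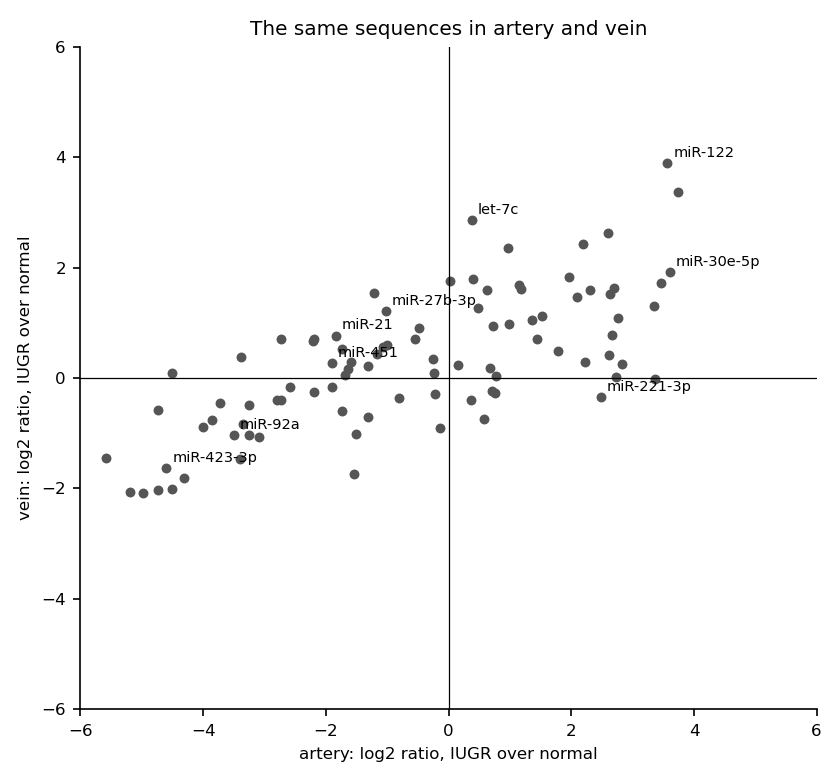
The log2 ratio of IUGR over normal in the artery pair (x axis) and in the vein pair (y axis) for 91 sequences kept in both and with reads in all 4 libraries. Each point is 1 sequence, and some are named. The points spread more widely along the artery axis than along the vein axis, miR-122 lies high in both, and miR-451 lies at -1.90 in artery and 0.27 in vein.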

How the data were processed

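Plasma exosome small RNA was sequenced as single reads of 36 bases after TruSeq small RNA library preparation, per the labels' protocols. The deposited raw columns are estimated counts per miRNA row, in which a read that fits several rows is divided among them. Per the submitters' processing notes the build was Sscrofa 10.2; for aligner and counter, nothing is given in the sources used here. Deposited normalized, fold and p columns were left aside. Estimated counts were joined by name and sequence, scaled to the reads left after removing predicted candidates and miR-3168, and rows with 10 or more reads over both libraries were kept. Rows sharing a sequence were summed for single miRNAs, and counts were rounded for intervals. With 1 library per condition no test was made; a row was called at 2-fold. Named miRNAs were the 10 most abundant of each library, the 12 highest and 12 lowest by the interval bound nearer no change, and members, cluster mates and opposite arms of 20 lists with 159 names. The members, lists and rules were chosen with earlier results of these data known. Python 3.11.15, pandas 2.3.3, scipy 1.17.1 and matplotlib 3.10.9 were used.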

Additional observations from a re-analysis of the deposited data

Results flagged for a closer look

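For 6 of the 98 sequences kept in both vessels, the ratio of IUGR over normal pointed in opposite directions in artery and vein. Both counting intervals were clear of no change. The difference between vessels was not tested, since each rests on 1 pool per condition. The log2 ratio of miR-125b was -0.48 in artery and 0.91 in vein. That of miR-27b-3p was -1.02 in artery and 1.21 in vein. That of miR-202-5p was -1.21 in artery and 1.54 in vein. miR-21 had -1.84 in artery and 0.77 in vein, and the erythroid pair had -1.90 and 0.27 for miR-451 and -2.21 and 0.67 for miR-144, in artery and vein.

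Among the predicted candidates that were left out, 16 rows including miR-3168 had at least 10 reads. Of these, 7 were higher in IUGR artery than in normal artery on the total reads of each library, with counting intervals clear of no change, and 4 of the 16 were at least 2-fold lower. The 7 higher candidates were PC-3p-8432_49 at 6.28-fold, PC-5p-10732_35 at 12.01-fold, PC-3p-25518_13 at 8.87-fold, PC-3p-20291_16 at 14.3-fold and PC-5p-25550_13 at 4.78-fold. PC-5p-9536_41 and PC-5p-18897_18 had no read in normal artery and were at least 4.78-fold and at least 4.55-fold higher in IUGR artery.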

How the results depend on the processing

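No miRNA at least 2-fold apart changed direction under any setting in which its ratio was computed. This was largely fixed beforehand. Rescaling moved all log2 ratios alike, by -0.41 to 0.18, and the minimum of reads moved none. Of 98 sequences at least 2-fold apart, 4 lay under 2-fold with all rows kept (miR-103 at -0.82, miR-27b-3p at -0.84, miR-214 at -0.89 and miR-27a at -0.99, log2). Under scaling by the median of ratios 5 did (let-7f at 0.96, miR-15c-5p at 0.80, miR-210 at 0.78, let-7b-5p at 0.75 and miR-22-5p at 0.74), and with a pseudocount of 1 read miR-22-5p (0.85) and miR-103 (-0.98) did. Under both settings on names, miR-103, miR-27b-3p and miR-214 did. With 1 pool per condition, no setting speaks to animal variation. Keeping all rows and scaling to all reads moved log2 ratios by 0.18. It gave 61 of 142 rows higher and 52 lower, including 7 higher and 4 lower rows that are otherwise left out. Scaling by the median of ratios moved log2 ratios by -0.41 and the median over rows to -0.01, with 47 of 126 rows higher and 53 lower. The median over rows was 0.39 and also lay below 0 with a minimum of 5 reads (-0.19) and with none (-0.54).

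The counts moved with the minimum of reads, which also sets how many rows are compared. Of 64 rows with at least 50 reads, 28 were higher and 22 lower. Of 414 rows with no minimum, 61 were higher and 90 lower, beside 52 and 52 of 126 rows in the main setting. The liver list held 20.03% of reads in IUGR artery and 1.45% in normal artery, and the erythroid list 7.60% in IUGR artery and 30.3% in normal artery, when all rows were kept. Without miR-451 and miR-122 the liver list held 15.7% in IUGR artery and 1.35% in normal artery, and the erythroid list 5.40% in IUGR artery and 36.1% in normal artery.

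Both settings on names were chosen after seeing the data. The first left out the rows whose sequence is named only with a substitution. There the liver list held 28.1% in IUGR artery and 2.16% in normal artery, and the erythroid list 14.2% in IUGR artery and 58.1% in normal artery. With only the pig-named rows among those left, 33 of 88 rows were higher and 33 lower. The liver list then held 30.3% in IUGR artery and 2.42% in normal artery, and the erythroid list 15.2% in IUGR artery and 61.2% in normal artery. The minimum of reads does not enter the list shares. Shares were not computed under the median of ratios or a pseudocount, nor single ratios with 1 row per mature name. No paired analysis was possible because each condition has 1 pool per vessel and the table columns carry no replicate number. Depth limits the rarer rows, since 1 read is worth 0.811 per 10000 in IUGR artery and 1.35 in normal artery.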
